A study of Mus musculus with 16 samples.

Results

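Vasopressin, oxytocin and 4 further genes of the magnocellular system (Avp, Oxt, Pdyn, Oxtr, Avpr1a and Nos1) were followed in the hypothalamus of 16 mice, 8 control mice and 8 KO chimeras. The genes were taken by name from the array's own annotation, which held 34650 names in all, with no measured value used. They had 8 of the array's 55681 non-control probes, a pair each for Pdyn and Nos1 and 1 each for the other four. No member differed between the groups past the threshold, while Avp and Oxt varied widely between animals of the same group and were correlated over the 16 animals (r = 0.77).

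Each animal gave 1 array of total hypothalamic RNA labelled with Cy3. KO chimeras were C57BL/6J mice that received 950 Rad, a dose lethal without a marrow graft, and then whole bone marrow of the strain Adrb1tm1BkkAdrb2tm1Bkk/J, which lacks both of these adrenergic receptors. The marrow was injected once behind the eye. A knockout to C57BL/6J ratio of 1 to 4 is stated, without saying whether it counts cells or animals, and tissue was taken 2 to 3 months later. The same treatment text and the strain entry of irradiated C57BL/6J stand beside all 16 mice, but only the KO chimeras have an entry for a marrow donor. Whether the controls were irradiated and given other marrow is therefore not settled, and neither age nor sex is given. The knockout lay in the grafted marrow, and the neurons of every mouse were those of the C57BL/6J host. If the ratio counts donors per recipient, some chimeras shared a donor.

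Magnocellular neurons of the paraventricular and supraoptic nuclei make either vasopressin or oxytocin, package the hormone with a carrier called neurophysin cut from the same precursor, and release both from the posterior pituitary into blood. Vasopressin retains water in the kidney and constricts vessels, and it is also made in the suprachiasmatic nucleus, the circadian clock. Oxytocin acts on the uterus and mammary gland and within the brain. The vasopressin and oxytocin genes are neighbours transcribed towards each other. Dynorphin, the product of Pdyn, is stored with vasopressin and acts on the kappa opioid receptor. Neuronal nitric oxide synthase, the product of Nos1, is abundant in magnocellular cells.

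The Avp probe is shown because the widest spread among the members rests on it. It matched chr2:130406552-130406817 of mm9 on the minus strand, a span of 266 bases for a 60-base probe, so the match is interrupted, as across an intron. GC made up 73.3% of its bases, more than in 99.7% of all probes, and the Oxt probe had 58.3% GC, more than in 98.3%. The median probe had 43.3%. Exon and UTR positions for the probes are not given in the sources used here.
Avp probe: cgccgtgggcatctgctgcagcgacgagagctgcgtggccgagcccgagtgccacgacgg

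The 250 bases before the start of Avp and of Oxt are shown because these genes varied together. Both come from RefSeq on GRCm38.p6, another build than that of the probe positions. The Avp stretch is chr2:130582589-130582838 on the minus strand, and the Oxt stretch is chr2:130575919-130576168 on the plus strand. Capitals mark matches on either strand to the E-box CACGTG, which clock factors can bind, to the nuclear receptor half-site AGGTCA, or to the cyclic AMP response element TGACGTCA.
Avp promoter: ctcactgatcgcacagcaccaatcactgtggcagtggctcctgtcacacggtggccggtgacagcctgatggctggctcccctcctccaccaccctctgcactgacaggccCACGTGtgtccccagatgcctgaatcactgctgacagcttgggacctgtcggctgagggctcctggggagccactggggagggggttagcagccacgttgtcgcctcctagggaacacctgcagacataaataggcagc
Oxt promoter: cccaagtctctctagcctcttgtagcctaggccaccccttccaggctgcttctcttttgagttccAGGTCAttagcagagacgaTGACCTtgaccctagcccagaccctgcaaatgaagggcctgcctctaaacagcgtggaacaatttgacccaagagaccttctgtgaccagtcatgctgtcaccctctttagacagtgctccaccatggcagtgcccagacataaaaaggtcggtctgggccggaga
The Avp stretch held CACGTG once, starting 139 bases before the gene's start. The Oxt stretch held AGGTCA starting 185 bases before the start and its reverse complement TGACCT starting 166 bases before. No match overlapped another, and neither stretch held TGACGTCA. Among 32851 RefSeq promoter stretches of the same length, 6.02% held CACGTG, 14% AGGTCA and 1.55% TGACGTCA. The motifs found in the 2 stretches were therefore different ones. All 6 members had a RefSeq entry, with 7 stretches in all because Pdyn had 2 starts. Oxtr, whose sequence is not printed, held both CACGTG and AGGTCA.

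Values are the log2 of the scanner's background-subtracted intensity minus the array's 75th percentile, so 0 is the 75th percentile of its non-control spots. Between 27276 spots (KO chimera replicate 1) and 43248 spots (control replicate 8) of 59305 were well above background. Those arrays made up slide 4, 1 of 6 slides, and scanning took 2 days, with 4 controls and 4 KO chimeras a day. The scanner software's linear fit of spike-in controls had an R² of 0 on control replicate 8. On every other array it was 0.966 to 0.992, and the cause was not tested. The number of arrays limits the precision, and p-values reflect animal-to-animal spread here. Of 16 hypothalamic marker genes 15 were measured, and 13 of these were well above background on every array. None of the 15 passed the threshold, and their median difference was 0.16. Of 8 suprachiasmatic markers 0 passed (median 0.27), and of 7 anterior pituitary markers 4 were measured, 1 of them above background on every array, and 0 passed (median 0.02). Across all probes well above background on at least 8 arrays, 908 of 35141 passed an adjusted p of 0.05 in limma, which is 2.58%, with 0.794% higher and 1.79% lower in KO chimeras. The split of these calls moved with the scaling: of the calls, 30.7% were higher in the main setting, 70.5% with the percentile taken over probes detected throughout, 5.34% with array medians (4509 calls), 10.6% after normexp background correction and 52.5% with dim probes kept. Scaling to array medians moved the median difference of all probes to −0.11, from 0.02, and the small member differences below are to be read against such shifts. In bulk tissue, fewer cells of a type and less RNA per cell cannot be told apart.

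**Figure D1:**
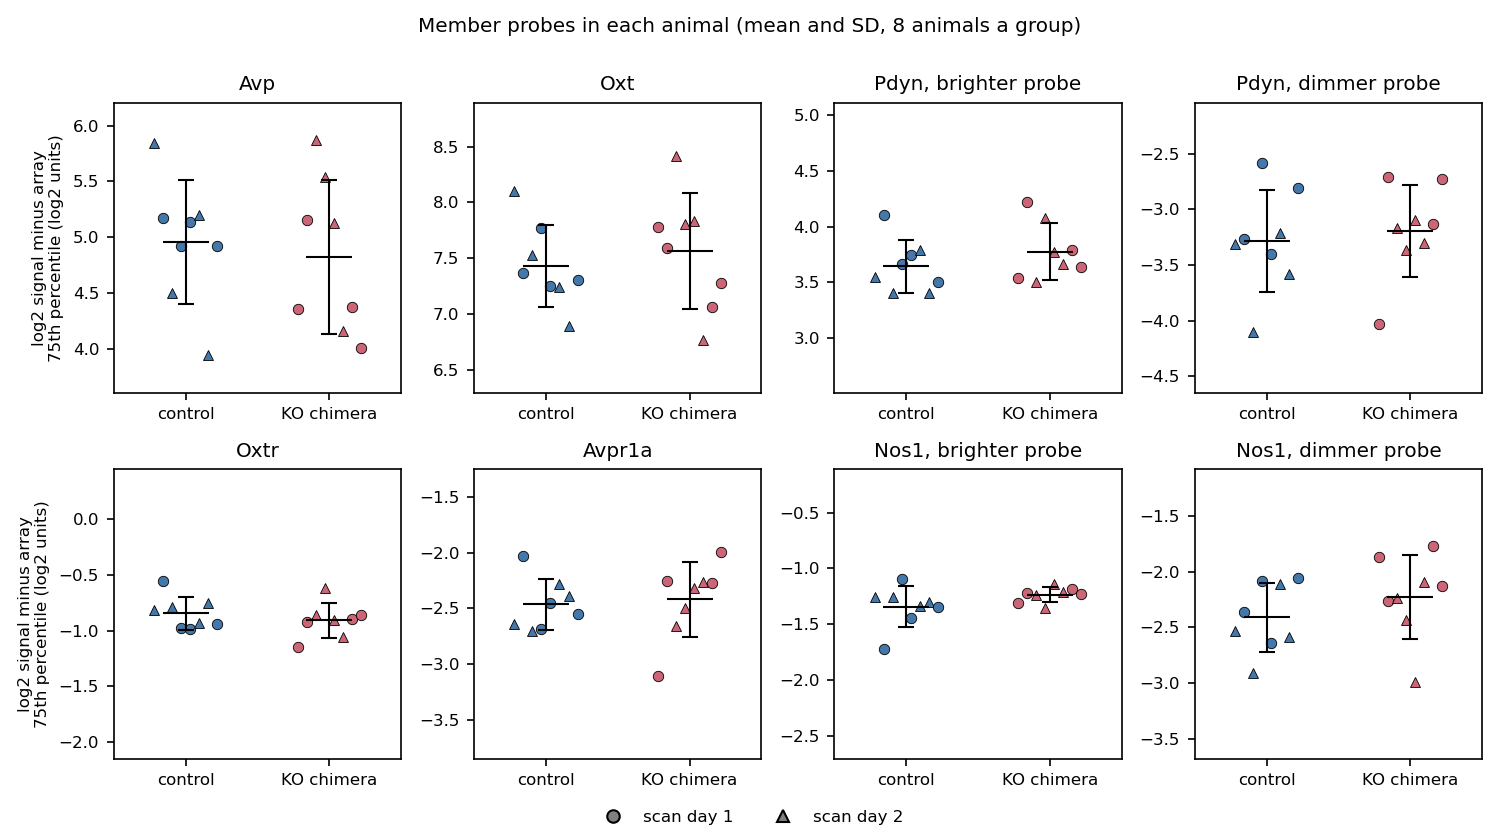
Each panel plots 1 member probe as log2 signal minus the array's 75th percentile (vertical axis, every panel spanning the same number of log2 units) in control mice and KO chimeras, with points for animals, their shape for the scan day, and bars for mean and SD of 8. Over all 16 animals Avp and Oxt spread most widely, from 3.94 to 5.87 and from 6.77 to 8.42. Among controls alone the dimmer Pdyn probe (SD 0.46) spread more than Oxt (SD 0.37). The groups overlap in every panel.

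Avp, the vasopressin precursor, was 3.94 at its lowest, 5.03 at the median and 5.84 at its highest among controls. In KO chimeras the lowest, median and highest values were 4.00, 4.75 and 5.87. The groups covered almost the same range. Group means were 4.95 ± 0.56 in controls and 4.82 ± 0.69 in KO chimeras (SD, n = 8 each). The difference, KO chimera minus control, was −0.13 ± 0.29 (SE) with a 95% confidence interval of −0.75 to 0.48, that is 0.596 to 1.40 times the control level (limma adjusted p = 0.834). A change of up to these bounds was not resolved with 8 animals a group. On scan day 1 the difference was −0.57 (95% confidence interval −1.08 to −0.05, adjusted p = 0.447), and on scan day 2 it was 0.30 (−0.78 to 1.38, adjusted p = 0.808). Its direction thus differed between days, and whether the day changed the difference was not tested. The 5 slides that held both groups had only 1 to 3 controls and 1 or 2 KO chimeras each. Within these slides the difference was negative on 4 and ran from −0.83 to 0.58. With slide as a fixed block it was −0.37 ± 0.32 (SE, limma adjusted p = 0.552).

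Oxt, the oxytocin precursor, was 6.89, 7.33 and 8.10 at the lowest, median and highest control. The corresponding KO chimeras stood at 6.77, 7.69 and 8.42. The control range lay inside that of the chimeras. Means were 7.43 ± 0.37 and 7.57 ± 0.52 (SD, n = 8 each), with a difference of 0.14 ± 0.21 (SE), a 95% confidence interval of −0.31 to 0.58 and a limma adjusted p of 0.756. The difference was 0.0040 on scan day 1 and 0.27 on scan day 2. It ran from −0.51 to 0.61 within the slides described for Avp, and was 0.04 with slide as a fixed block.

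Both neuropeptide genes varied more between animals of a group than most probes did. The residual SD was 0.63 for Avp, above that of 95.7% of the 35141 probes, and 0.45 for Oxt, above 85.8%. Among the tenth of probes with the highest means, where spread is usually small (median residual SD 0.14), the percentiles were 99.5 and 97.9. From the lowest to the highest animal, the signal spanned 3.80-fold for Avp and 3.14-fold for Oxt. Oxt minus Avp within each animal was 2.47 ± 0.40 in controls and 2.74 ± 0.40 in KO chimeras (SD, n = 8 each). That difference of 0.27 gave a 2-sided exact permutation p of 0.201 over 12870 assignments.

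Pdyn, the dynorphin precursor, had a brighter probe at chr2:129512323-129512382 and a dimmer one at chr2:129513968-129514027 (mm9). On the brighter probe controls ran from 3.40 over a median of 3.61 to 4.10. KO chimeras ran from 3.50 over 3.72 to 4.22. The ranges overlapped widely. The difference was 0.13 ± 0.12 (SE), with group means of 3.64 ± 0.24 and 3.77 ± 0.26 (SD, n = 8 each), and a limma adjusted p of 0.569. The dimmer probe, well above background in 8 controls and 7 chimeras, gave 0.09 ± 0.20 (SE, adjusted p = 0.837 in limma). Over the 16 animals the probes correlated with r = 0.35 (permutation p = 0.200), rho = 0.33 (permutation p = 0.235), and r = 0.28 without the 2 animals farthest from the median.

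Oxtr encodes the oxytocin receptor and was read at chr6:112423686-112423745 (mm9). It ranged from −0.99 to −0.56 in controls (median −0.87) and from −1.15 to −0.62 in KO chimeras (median −0.90). The spread was narrow and shared. Its difference was −0.07 ± 0.08 (SE), with a 95% confidence interval of −0.23 to 0.10 and a limma adjusted p of 0.682. Means were −0.84 ± 0.15 and −0.91 ± 0.16 (SD, n = 8 each).

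Avpr1a, the vasopressin receptor of vessels and brain, was read at chr10:121890135-121890194 (mm9). Controls ran from −2.70 over a median of −2.50 to −2.03, and KO chimeras from −3.11 over −2.29 to −1.99. The lowest value belonged to KO chimera replicate 1, the array with the fewest spots above background. The probe was well above background in 8 controls and 7 chimeras, and the difference was 0.05 ± 0.14 (SE, limma adjusted p = 0.883). Its 95% confidence interval ran from −0.25 to 0.34.

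Nos1 had a brighter probe at chr5:118404306-118404365, designed on an Ensembl transcript, and a dimmer one at chr5:118402831-118402890, designed on a RefSeq transcript (both mm9). The brighter probe ran from −1.72 over −1.32 to −1.09 in controls and from −1.35 over −1.22 to −1.14 in KO chimeras. All chimeras therefore lay within the control range. The difference was 0.11 ± 0.07 (SE), with a 95% confidence interval of −0.05 to 0.27 and a limma adjusted p of 0.433. The dimmer probe differed by 0.19 ± 0.16 (SE, limma adjusted p = 0.551). Over the 16 animals the probes gave r = −0.04 (permutation p = 0.876), rho = −0.11 (permutation p = 0.704), and r = −0.29 without the 2 farthest animals. The order of the animals thus differed between these probes of 1 gene.

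Of the 8 member probes, 0 passed in limma, against 2.58% of all probes. At an unadjusted p of 0.05 the count was also 0, against 20.0% of all probes. The 2-sided exact permutation test of each probe gave p between 0.126 and 0.763. With 8 probes, a share of 2.58% would amount to less than 1 call, so the count of 0 is near the background. No member's groups were free of overlap, a state that 0.837% of all probes reached. By scan day, the brighter or single probes of Pdyn (0.04 and 0.22), Avpr1a (0.02 and 0.07) and Nos1 (0.16 and 0.05) stood above 0 on both days, and Oxtr (−0.09 and −0.04) below 0 on both.

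**Figure D2:**
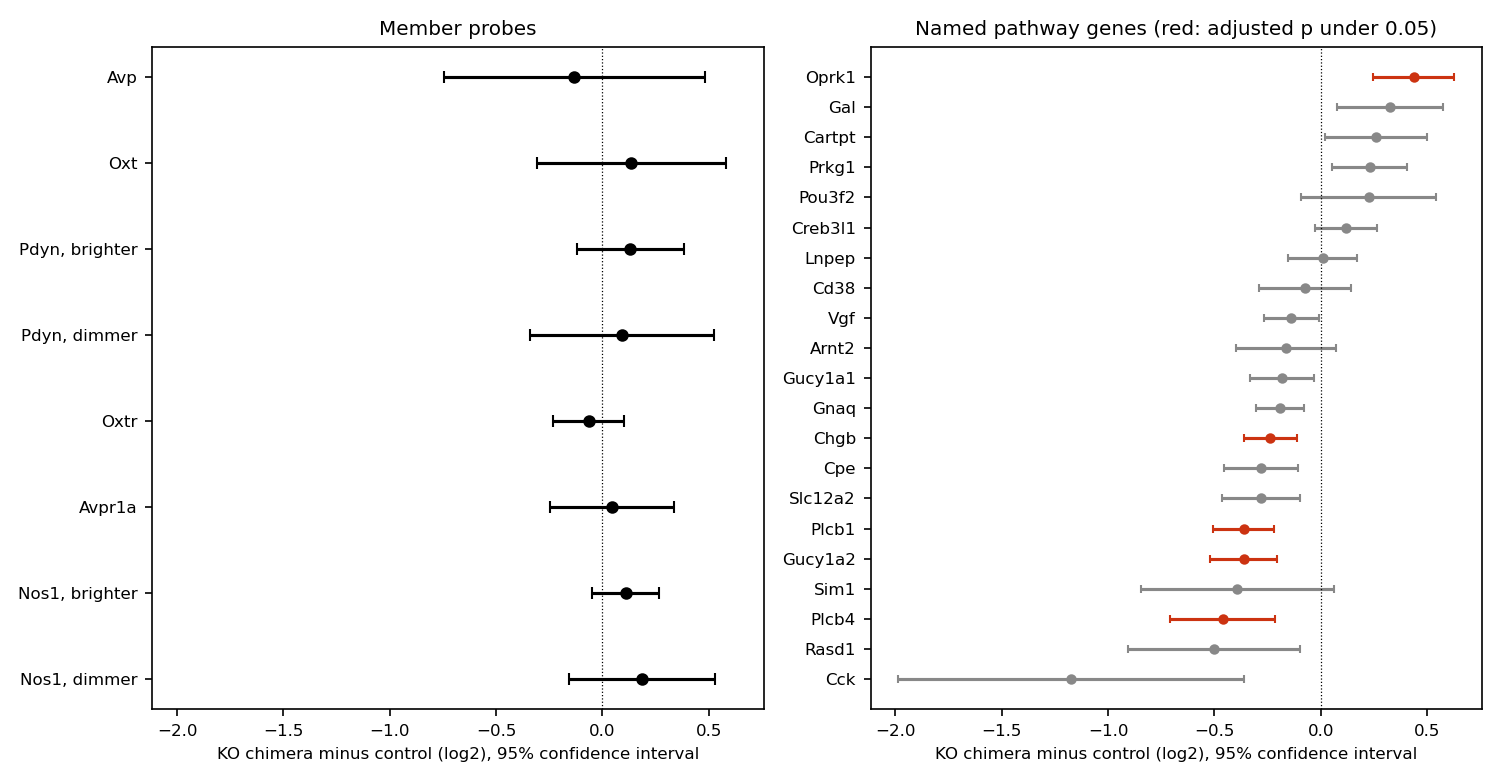
KO chimera minus control in log2 units (horizontal axis) with 95% confidence intervals from limma, for the 8 member probes on the left and for named genes of the pathway lists on the right, where red marks an adjusted p under 0.05. All 8 member intervals cross 0, the widest being that of Avp (−0.75 to 0.48), while Oprk1 lies at 0.44 and Chgb, Plcb1, Gucy1a2 and Plcb4 lie below 0.

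Co-variation was examined over the 16 animals after subtracting each group's mean, using the brighter probe of each gene and 15 pairs. Avp and Oxt correlated with r = 0.77 (permutation p = 0.00121, adjusted over 15 pairs 0.0181) and rho = 0.69 (permutation p = 0.00799). KO chimera replicate 3 and control replicate 1 were highest for both genes in their group. Control replicate 7 was lowest for both among controls. Animals lay on the same side of the group mean for both genes in 7 of 8 KO chimeras but in 3 of 8 controls. The other five controls had Avp deviations from −0.45 to 0.24 and Oxt deviations from −0.19 to 0.34.

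The correlation rested in part on the animals at the ends. Without the 2 animals farthest from the Avp median, control replicate 7 and KO chimera replicate 3, r was 0.62 (permutation p = 0.0348, adjusted 0.298). Leaving out control replicate 1 alone gave an adjusted p of 0.0984, control replicate 7 alone 0.0792 and KO chimera replicate 3 alone 0.116. Within controls r was 0.69 with rho = 0.26 (exact permutation p = 0.0599 and 0.536), and within KO chimeras 0.82 with rho = 0.74 (0.0131 and 0.0458), n = 8 each. On scan day 1 the 8 animals gave r = 0.20 (permutation p = 0.797), and on scan day 2 the other 8 gave r = 0.89 (permutation p = 0.0169). The animals at the ends, control replicates 1 and 7 and KO chimera replicate 3, were all scanned on day 2. Whether r differed between the days was not tested. With slide means subtracted as well, r was 0.78 (adjusted p = 0.165).

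**Figure D3:**
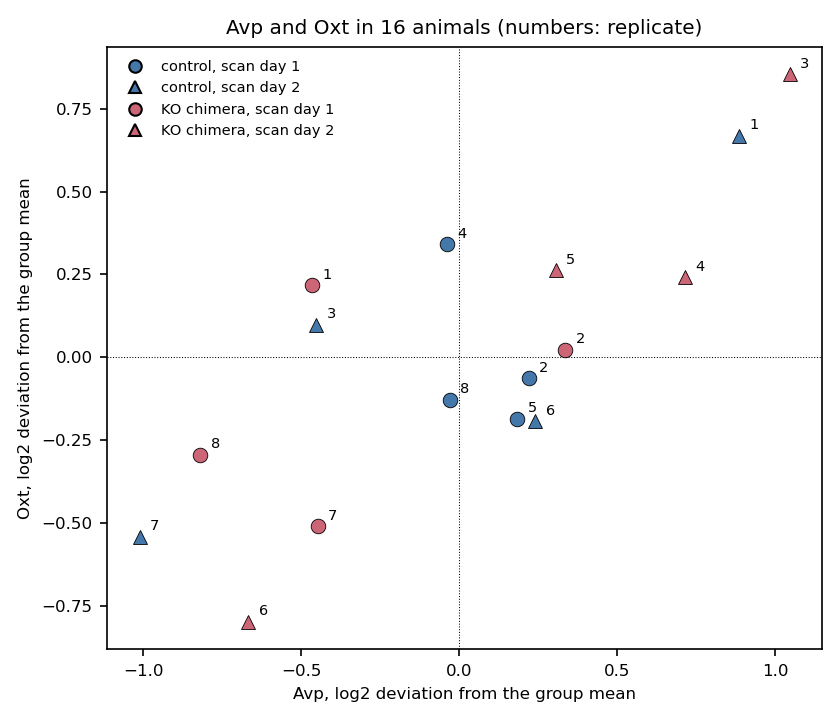
Each point is 1 animal, numbered by replicate, with its log2 deviation from the group mean for Avp (horizontal axis) and Oxt (vertical axis); colour gives the group and shape the scan day. The 16 points rise together (r = 0.77), and control replicates 1 and 7 and KO chimera replicate 3, all of scan day 2, lie at the ends (r = 0.89 on scan day 2 and 0.20 on scan day 1).

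No other pair passed. Oxt and Avpr1a, the receptor of the sister peptide, gave r = −0.54 (permutation p = 0.0495, adjusted 0.227), rho = −0.62 (permutation p = 0.0164) and r = −0.51 without the 2 farthest animals. Pdyn and Avpr1a gave r = 0.50 (permutation p = 0.0659, adjusted 0.227), rho = 0.56 (permutation p = 0.0303) and r = 0.31 without the 2 farthest animals. Avp and Pdyn, whose products are stored together, gave r = 0.37 (permutation p = 0.176, adjusted 0.323), rho = 0.39 (permutation p = 0.146) and r = 0.58 without the 2 farthest animals. Oxt and its receptor Oxtr gave r = 0.13 (permutation p = 0.657, adjusted 0.704), rho = 0.14 (permutation p = 0.632) and r = −0.05 without the 2 farthest animals.

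**Figure D4:**
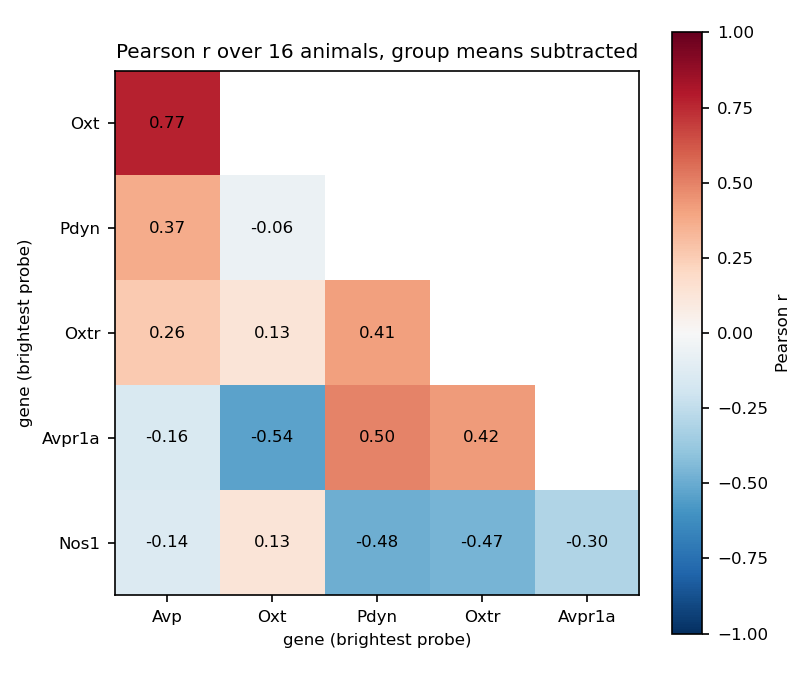
Pearson r between the 6 member genes over 16 animals with group means subtracted, 1 cell per pair, on a colour scale from blue (negative) to red (positive). The cell of Avp and Oxt holds 0.77, and the other 14 run from −0.54 to 0.50.

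Among 16832 other genes with a symbol, ranked by r over the same 16 animals, Oxt stood 39th in likeness to Avp and Avp stood 25th in likeness to Oxt. The gene most like Avp was Men1, which encodes the nuclear scaffold protein menin, with r = 0.976. Its probe at chr19:6340689-6340748 (mm9) had r = 0.97 within controls, 0.99 within KO chimeras, 0.96 on scan day 1 and 0.99 on scan day 2. Leaving out any single animal kept r between 0.97 and 0.98. The longest run of bases that this probe and the Avp probe had in common on either strand was 5. Whether either probe also binds other transcripts was not tested, which would need the genome. A second Men1 probe, at chr19:6340814-6340873, had r = 0.25 with Avp and a far smaller spread over the animals, from 2.77 to 3.19 against 4.53 to 6.09. Its r was 0.70 within controls, −0.11 within KO chimeras, −0.53 on scan day 1 and 0.42 on scan day 2. The values of the 2 Men1 probes therefore did not settle whether the gene or 1 probe varied with Avp.

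**Figure D5:**
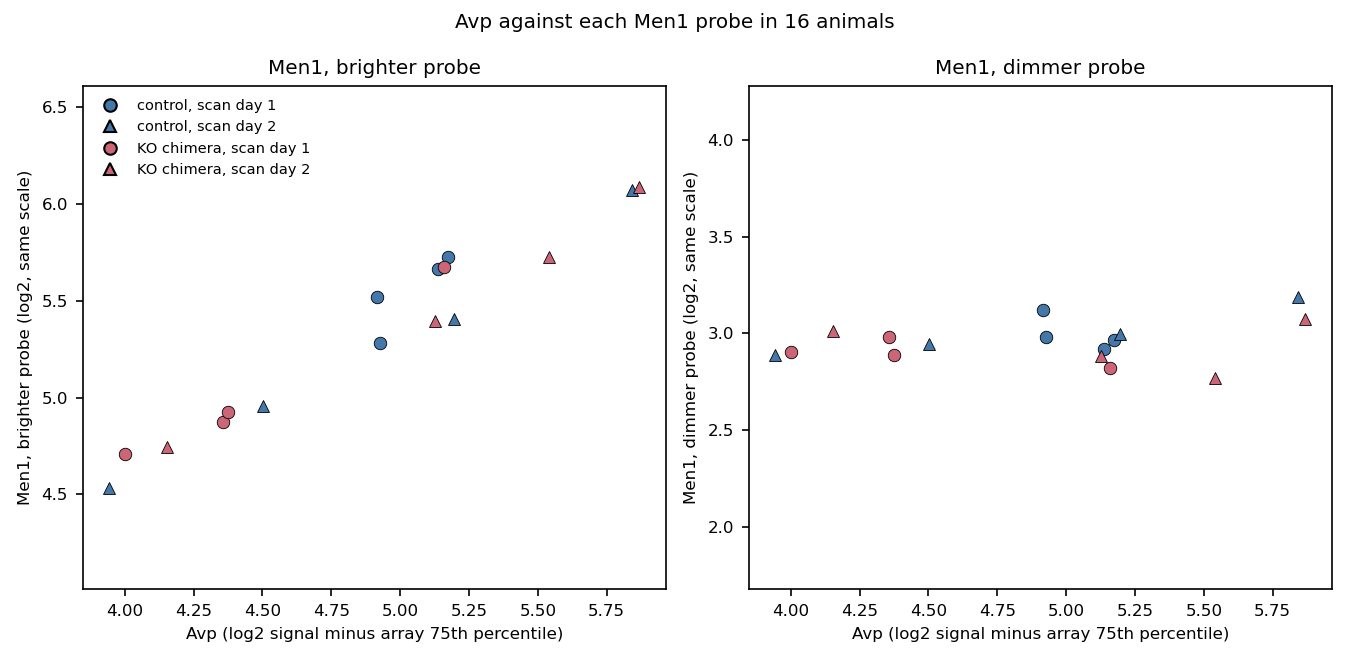
Avp (horizontal axis) against the brighter Men1 probe (left) and the dimmer Men1 probe (right) in 16 animals, all as log2 signal minus the array's 75th percentile, with colour for group and shape for scan day. Points on the left rise along a line (r = 0.976), while those on the right stay between 2.77 and 3.19 over the whole Avp range (r = 0.25).

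The next genes in likeness to Avp were 4930488N24Rik (r = 0.89), Nfatc3, a calcium-regulated transcription factor (0.85), 9530068E07Rik (0.85) and Bdh2, a hydroxybutyrate dehydrogenase (0.84). Of the 3 Nfatc3 probes, the other two had r = 0.15 and 0.04. For Oxt the genes named were Zfp655, a zinc finger gene (r = 0.90), Ccnd3, cyclin D3 (0.86), 4930488N24Rik (0.85) and Zbtb2, a zinc finger gene (0.83). The other Zfp655 probes had r = −0.36 and −0.40, and the other Ccnd3 probe −0.05. Thus for 4 of the genes with several probes, Men1, Nfatc3, Zfp655 and Ccnd3, 1 probe had r between 0.85 and 0.98 with the hormone, while the rest lay between −0.40 and 0.25. These genes were picked as the highest of many, so their r values are descriptions without a test. The array holds only 1 probe each for Avp and for Oxt, so the same comparison was not possible for them.

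Chromosomal neighbours did not all move with the hormones. The Avp and Oxt probes lay 3827 bases apart, and within 100000 bases of the Avp probe 8 further probes of 6 genes were measured. Their r ranged from −0.31 to 0.70 with Avp, the highest being that of Ptpra, a receptor tyrosine phosphatase, and from −0.34 to 0.46 with Oxt. Ubox5 and Mrps26 each had 1 probe with a negative and 1 with a positive r for both hormones. Pdyn, on the same chromosome 888637 bases from Oxt by its dimmer probe, had r = −0.06 with Oxt.

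Marker scores, the mean of centred log2 values over a list of genes, were set against the 6 members in 60 pairs. None passed adjustment over the 60. The smallest p was that of Pdyn with the hypothalamus list, r = 0.77 (permutation p = 0.00143, adjusted 0.0858), rho = 0.63 (permutation p = 0.0140), and r = 0.60 without the 2 farthest animals. Next came Pdyn with the suprachiasmatic list, r = −0.71 (permutation p = 0.00491), rho = −0.57 (permutation p = 0.0224), and r = −0.36 without the 2 farthest animals. Oxtr with the hypothalamus list gave r = 0.68 (permutation p = 0.00785), rho = 0.43 (permutation p = 0.114), and r = 0.15 without them. Pdyn gave r = 0.66 with the ependyma and tanycyte list (permutation p = 0.00985), rho = 0.14 (permutation p = 0.606), and r = 0.071 without them. Its r with the list of cortex, hippocampus and striatum was −0.60 (permutation p = 0.0133), rho = −0.46 (permutation p = 0.0879), and r = −0.44 without them. Each of these pairs after the first had an adjusted p of 0.131, and several r values were much nearer 0 without the farthest animals. Avp and the hypothalamus list gave r = 0.61 (permutation p = 0.0159, adjusted 0.131), rho = 0.69 (permutation p = 0.00787) and r = 0.64 without the 2 farthest animals. With the thalamus, oligodendrocyte or hypothalamus score removed by regression, the r of Avp and Oxt was 0.76, 0.80 and 0.79. Neither the array's 75th percentile nor its number of spots above background passed with any member in 12 pairs (lowest adjusted p = 0.412). With the 75th percentile, r was −0.43 for Avp and −0.45 for Oxt (permutation p = 0.104 and 0.0911), and −0.39 to 0.27 for the other members. Without the 2 arrays farthest on it, r was −0.40 for Avp and −0.54 for Oxt. That percentile is subtracted from both values. After quantile normalization, which does not subtract it, Avp and Oxt remained the 1 passing pair of 15. The percentile's own part in their correlation was not tested.

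Other genes of the pathway were grouped in 7 lists by role. Among receptors, the peptidase and release genes, 3 of 5 were measured. Oprk1, the kappa opioid receptor on which dynorphin acts, rose. Controls ran from −0.80 to −0.03 and KO chimeras from −0.02 to 0.24, so the groups did not overlap, a state reached by 0.837% of all probes. Means were −0.31 ± 0.24 and 0.13 ± 0.09 (SD, n = 8 each), a difference of 0.44 ± 0.09 (SE, limma adjusted p = 0.0237), and the values by scan day were 0.46 and 0.42. With slide as a fixed block it was 0.44 with an adjusted p of 0.0582, and adjusted p was 0.0520 without control replicate 7 and 0.0505 without KO chimera replicate 6.

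Markers of other tissue moved in the same comparison. All 10 thalamus markers had a negative difference and 1 of them (Adarb1) passed, with a median of −0.94 and scores of −0.86 to 1.53 in controls and −1.48 to 0.26 in KO chimeras. Of 11 oligodendrocyte markers 4 fell (Mobp, Mal, Cldn11 and Mog), and 2 had a positive difference without passing (Mbp, 0.07, and Ermn, 0.09). These were read on the brightest probe of each gene. The other Mbp probes differed by −0.26 and 0.31 and the other Ermn probe by −0.51, without passing. The median of the list was −0.36, with scores of −0.12 to 0.46 in controls and −0.31 to 0.06 in KO chimeras. The oligodendrocyte markers were above background on every array, and so were 9 of the 10 thalamus markers. Of 10 microglia markers, each on its brightest probe, 0 had a positive difference and 1 fell (Trem2), with a median of −0.23. Scores were −0.04 to 0.30 in controls and −0.28 to −0.02 in KO chimeras. Cx3cr1 had 3 probes, and its brightest and 1 other each differed by −0.25. Its remaining probe rose by 0.61, with an adjusted p of 0.0140 in limma with dim probes kept. Of 8 ependyma and tanycyte markers, 7 had a positive difference (median 0.49), while the 1 that passed, Dio2, fell. Their scores were −0.65 to 0.62 in controls and −0.11 to 0.78 in KO chimeras, and 6 were above background on every array. Of 8 pan-neuronal markers 1 had a positive difference and 0 passed, with 3 at an unadjusted p under 0.05 in limma and a median of −0.20. Their scores were −0.02 to 0.26 in controls and −0.20 to 0.05 in KO chimeras. Astrocyte markers (8 measured, median −0.10) and those of cortex, hippocampus and striatum (10 measured, median 0.12) gave 0 calls in limma, with 2 and 1 at an unadjusted p under 0.05. These values stand beside all the pathway genes named here, and the part of microglia, ependyma and pan-neuronal markers in their differences was not tested. With the thalamus score as a covariate the Oprk1 difference was 0.34 (adjusted p = 0.196), and with the oligodendrocyte score it was 0.30 (adjusted p = 0.515). Over all 36 alternatives it stayed between 0.30 and 0.50.

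Lnpep, the placental leucine aminopeptidase that degrades both hormones, differed by 0.01 (adjusted p = 0.963), and Cd38, needed for oxytocin release, by −0.07 (adjusted p = 0.726, both limma). Avpr1b was above background on 0 arrays. Avpr2, the kidney receptor, had 2 probes, above background on 1 and 0 arrays. Both were left out of the test by the filter.

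Magnocellular peptides and co-transmitters were all measured, and 0 of 10 passed in limma, with 3 at an unadjusted p under 0.05 and a median difference of 0.07. Cck, cholecystokinin, stood at 5.0 ± 0.80 in controls and 3.83 ± 0.87 in KO chimeras (SD, n = 8 each), a difference of −1.17 ± 0.38 (SE, limma adjusted p = 0.101). With the thalamus score as a covariate that difference was −0.061 (limma adjusted p = 0.837). Gal, galanin, differed by 0.32 (adjusted p = 0.135) and Cartpt, the precursor of CART peptide, by 0.26 (adjusted p = 0.213, both limma). The hormones' companions thus showed values on both sides of 0.

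Of 10 genes of precursor processing and granules, 1 fell and none rose, with a median of −0.08. Chgb, chromogranin B of the secretory granule, was 6.12 ± 0.09 in controls and 5.88 ± 0.11 in KO chimeras (SD, n = 8 each), a difference of −0.24 ± 0.06 (SE, limma adjusted p = 0.0451). The groups overlapped. The difference was −0.25 with slide as a fixed block (adjusted p = 0.0734), −0.26 with the thalamus score (0.171) and −0.22 with the oligodendrocyte score (0.488), and stayed between −0.36 and −0.17 over 36 alternatives. The call was also lost without any single animal but control replicate 8 (adjusted p up to 0.0908). Cpe, carboxypeptidase E, which trims peptide precursors, differed by −0.28 (adjusted p = 0.0689), and Vgf, a granule protein, by −0.14 (adjusted p = 0.225, both limma).

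Below the receptors, 2 of 7 Gq signalling genes fell on the probe tested per gene. Plcb1, a phospholipase C, differed by −0.36 ± 0.07 (SE, limma adjusted p = 0.0185) on its brightest probe, but its other 2 probes differed by 0.35 and 0.31 and did not pass. Plcb4, another phospholipase C, differed by −0.46 ± 0.12 (SE, limma adjusted p = 0.0467) on 1 of 4 probes, the other three lying between −0.11 and 0.10. The list's direction for these enzymes was therefore that of single probes. Gnaq, the G protein subunit itself, differed by −0.19 (limma adjusted p = 0.0639). With slide as a fixed block Plcb1 differed by −0.37 (adjusted p = 0.0580) and Plcb4 by −0.44 (adjusted p = 0.0695). With the thalamus score the differences were −0.37 for Plcb1 (adjusted p = 0.117) and −0.17 for Plcb4 (0.341). With the oligodendrocyte score they were −0.37 (0.356) and −0.28 (0.646). Leaving out 1 animal ended the Plcb4 call for 13 of the 16 animals (adjusted p up to 0.0874), all but control replicates 4, 6 and 8.

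In nitric oxide signalling 1 of 7 genes fell and none rose. Gucy1a2, a subunit of the nitric oxide receptor guanylyl cyclase, differed by −0.36 ± 0.07 (SE, limma adjusted p = 0.0222) on 1 of 3 probes. The others differed by −0.32 and 0.04 and did not pass. The difference was −0.36 with slide as a fixed block (adjusted p = 0.0708), −0.26 with the thalamus score (0.196) and −0.26 with the oligodendrocyte score (0.50), and stayed between −0.49 and −0.24 over 36 alternatives. Prkg1, a cGMP-dependent kinase, differed by 0.23 (limma adjusted p = 0.134) and Gucy1a1, another cyclase subunit, by −0.18 (limma adjusted p = 0.165).

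Transcription factors of the paraventricular and supraoptic nuclei gave 0 of 4 measured past the threshold, with none at an unadjusted p under 0.05 either. Sim1, required for these neurons to form, differed by −0.39 ± 0.22 (SE, limma adjusted p = 0.323), Pou3f2 by 0.23 (adjusted p = 0.422) and Arnt2 by −0.16 (adjusted p = 0.435). Otp, above background on 6 arrays, was left out by the filter. Genes of the osmotic response gave 0 of 5 measured, with 2 at an unadjusted p under 0.05. Rasd1, induced in these neurons by salt loading, differed by −0.50 ± 0.19 (SE, limma adjusted p = 0.152), and by −0.052 with the thalamus score as a covariate (limma adjusted p = 0.899). Slc12a2, a chloride importer, differed by −0.28 (limma adjusted p = 0.0828), and by −0.045 with the oligodendrocyte score (limma adjusted p = 0.927). Limma adjusted p was 0.639 for Cck and 0.707 for Rasd1 with the oligodendrocyte score, and 0.325 for Slc12a2 with the thalamus score. For the other list genes that did not pass, covariate differences are not given in these paragraphs. Both scores ran lower in KO chimeras, so such fits cannot fully separate score and group. Creb3l1, a transcription factor of the Avp gene, differed by 0.12 (adjusted p = 0.353). Trpv1, an ion channel, was above background on 7 arrays and was left out likewise. Across the 7 lists, 5 of the 46 measured genes passed on the probe tested per gene, 1 higher and 4 lower. Of all probes 2.58% passed. Higher shares passed in fits on sets more like these lists. With 1 probe per gene 925 of 24361 passed, and among probes well above background on all 16 arrays 1503 of 24401. The lists were chosen with earlier results of these data known.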

How the data were processed

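Hypothalamic RNA of 8 control mice and 8 KO chimeras was read on 16 one-colour Agilent arrays. Per the file headers, the deposited scanner files hold spot intensity after the scanner software's background subtraction, and per the submitters' processing notes they were made with Agilent Feature Extraction 10.7. The deposited value table holds log2 values that followed the scanner values closely where these were above 5 on the log2 scale (correlation at least 0.9996 on every array; dimmer spots were not compared). The sources used here do not state its scaling. Its array medians ran from 5.21 to 5.26, and it served as an alternative.

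Control spots and outlier spots were left out, spots of a probe were averaged, and log2 intensity minus the array's 75th percentile was used. A probe was tested if well above background on at least 8 arrays. Differences were fitted over all such probes with lmFit and eBayes of limma 3.58.1 in R 4.3.3, with p-values adjusted by Benjamini-Hochberg and called under 0.05. In simulated arrays of this comparison (35141 probes), 53.7% of 67 probes changed by 0.5, 77.6% of 67 changed by 1 and 98.5% of 66 changed by 2 log2 units were called, beside 6 of 34941 unchanged probes. The changed probes were drawn at random from all tested probes (median residual SD 0.22), with noise independent between arrays. Avp (0.63) and Oxt (0.45) varied more, so these rates do not hold for them. No member spot was saturated.

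Correlations used the brightest probe per gene with group means subtracted, and 100000 re-pairings within groups (all 40320 within 1 group). Named genes were the members, pathway genes past the threshold, up to 3 genes per list with the smallest p, and the 5 genes most like Avp and Oxt, of which 1 is not reported here. Members and lists were chosen with earlier results of these data known. Alternatives were other scalings, filters, background corrections, blocks and left-out animals. Covariate fits with marker scores, the fits without slide 4, and the alternatives of the exact, marker and Men1 results were chosen after seeing the data.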

Additional observations from a re-analysis of the deposited data

Results flagged for a closer look

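In 31 values, each tested in 8 controls and in 8 KO chimeras for an animal standing apart from its group, 3 of 62 groups held one, and chance marks about 1 in 20. None was a member probe. Cpe was lowest in control replicate 4 at 8.09, below the next control at 8.28. Creb3l1 was highest in KO chimera replicate 7 at −0.075, above the next chimera at −0.25. Slc12a2 was highest in control replicate 5 at 2.94, above the next control at 2.66. Values are log2 signal minus the array's 75th percentile.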

How the results depend on the processing

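None of the 8 member probes passed in any limma setting. The depth of the arrays, as signal over background, limits most the dimmer Pdyn probe and Avpr1a. Differences changed sign as follows. For Avp the difference was 0.30 on scan day 2 and 0.063 when the oligodendrocyte score entered the fit. With the thalamus score, the brighter Pdyn probe stood at −0.043. The dimmer Pdyn probe gave −0.035 with quantile normalization and with array medians, −0.043 in the value table, −0.13 on scan day 1 and −0.27 with the thalamus score, and ran from −0.025 to 0.21 with 1 animal left out. Avpr1a gave −0.055, −0.081 and −0.061 with quantile, median and value table, −0.058 with the thalamus and −0.042 with the oligodendrocyte score, and −0.016 to 0.14 with 1 animal left out. The brighter Nos1 probe gave −0.018 with array medians. On scan day 2, Sim1 stood at 0.072, Arnt2 at 0.030 and Cd38 at 0.065. Lnpep gave −0.073, −0.12 and −0.077 with quantile, median and value table, −0.10 on scan day 1, −0.064 with the thalamus score and −0.029 to 0.039 with 1 animal left out. Creb3l1 gave −0.0094 with array medians. The causes were not tested.

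By exact permutation, 1 member probe passed an unadjusted 0.05 with the percentile over probes above background on all arrays (Nos1, exact p = 0.0137) and 1 with array medians (Oxtr, exact p = 0.0286). With 1 animal left out the count was 0 to 1 (Nos1 without control replicate 4, exact p = 0.0127).

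The 1 passing pair became 0 with slide means subtracted, without the 2 farthest animals, within either group and within either scan day, and 2 with the hypothalamus score subtracted, where Oxt and Avpr1a gave r = −0.73 (adjusted permutation p = 0.0272). With 1 animal left out it was 0 to 1. For Avp and Oxt r was 0.78, 0.62, 0.69 within controls, 0.82 within KO chimeras, 0.20 on scan day 1 and 0.89 on scan day 2, and 0.69 to 0.83 with 1 animal left out. Among marker scores, 1 pair passed with group means kept and 1 with scan day means subtracted (both Pdyn with hypothalamus, adjusted permutation p = 0.021 and 0.048), and 0 to 1 with 1 animal left out.

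Samples sharing a replicate number correlated from −0.07 to 0.23 and matched their own number best for 3 of 8 numbers. Whether the numbers pair animals was not tested, and the main setting did not treat them as pairs. With the replicate number as a block, 700 probes were called, 0 of them members, the member pairs passing were 0, and r was 0.81 for Avp and Oxt (adjusted permutation p = 0.210) and 0.18 for Oxt and Avpr1a. Over the array, calls numbered 908 in the main setting, 251 with slide fixed, 216 after normexp, 522 with quantile normalization, 551 in the value table, 1503 with probes above background on all arrays, 459 without a filter, 4509 with array medians, 3 with the thalamus and 2 with the oligodendrocyte score, and 268 to 1120 with 1 animal left out. Within either scan day limma called 0 (3791 and 4818 at an unadjusted p of 0.05). Oprk1 stayed called in 27 of 36 alternatives, Plcb1 in 31, Gucy1a2 in 30, Plcb4 in 12 and Chgb in 11.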
